A study of Bos taurus with 12 samples.

Results

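Fibroblast growth factors and hepatocyte growth factor are secreted proteins by which one tissue layer instructs another. The genes described here are 10 symbols chosen by name: the ligands FGF2, FGF7, FGF10 and HGF, the receptors FGFR1, FGFR2, FGFR3 and MET, and the transcription factors ETV4 and ETV5. The count table held rows for 9 of the 10 among its 13930 gene symbols, and all 9 had enough reads to be tested, as had 10959 genes in all. ETV4 was not analysed here.

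The tissue was endometrium, the lining of the uterus, taken by biopsy on cycle day 4, when blood progesterone begins to rise, from dairy cows (Bos taurus) kept on pasture. Messenger RNA of 12 biopsies was sequenced, 3 in each of 4 classes of progesterone concentration. The very low class (titled ANE) lay below 0.25 ng/ml, the low class (LPP4) below 1.4, given in mg/dl in its labels, the high class (HPP4) exceeded 2.5 ng/ml and the very high class (SO) exceeded 20 ng/ml. The labels name no breed, age or treatment, do not explain the titles ANE and SO, and do not state that replicates are separate cows, so p-values measure only the spread between these samples.

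In the uterus FGF7, FGF10 and HGF are known mainly as products of the stroma that act on the epithelium, where FGFR2 (in its epithelial splice form) and MET receive them, and in ruminants they have been discussed as stromal mediators of progesterone. FGF2 binds FGFR1 and other FGF receptors and acts on many cell types. Inside the cell FGF receptors and MET feed the RAS-ERK kinase cascade, and ETV4 and ETV5 are ETS-family factors whose genes are switched on by that cascade in many tissues.

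The libraries held 3772564 to 8379489 counted reads, the fewest in very low replicate 2, and levels below are CPM (counts relative to the TMM-scaled library total). Marker genes showed that tissue make-up differed between the libraries. The 13 tested smooth muscle markers averaged 9.41 to 10.7 on the log2 CPM scale in the upper 6 libraries, of the high and very high classes. They averaged 5.02 to 6.26 in the 3 low ones, 4.99 and 6.43 in very low replicates 2 and 3, and 11.8 in very low replicate 1. That last library had the lowest mean of the 14 epithelial markers, 3.60 against 6.39 to 8.49 in the other 11. The 7 tested macrophage and dendritic markers averaged 4.18 to 6.09 in the very low and low libraries and 2.73 to 3.82 in the upper 6, with no overlap, and a further 3 of that list (AIF1, C1QA and C1QB) were listed at 0 in every library. The 10 T and NK cell markers averaged 3.67 to 5.08 in the lower and 2.38 to 3.93 in the upper 6 libraries, and the 6 neutrophil markers 3.98 to 9.17 and 3.74 to 5.39. In bulk tissue fewer cells of a type and less RNA per cell cannot be told apart.

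**Figure D1:**
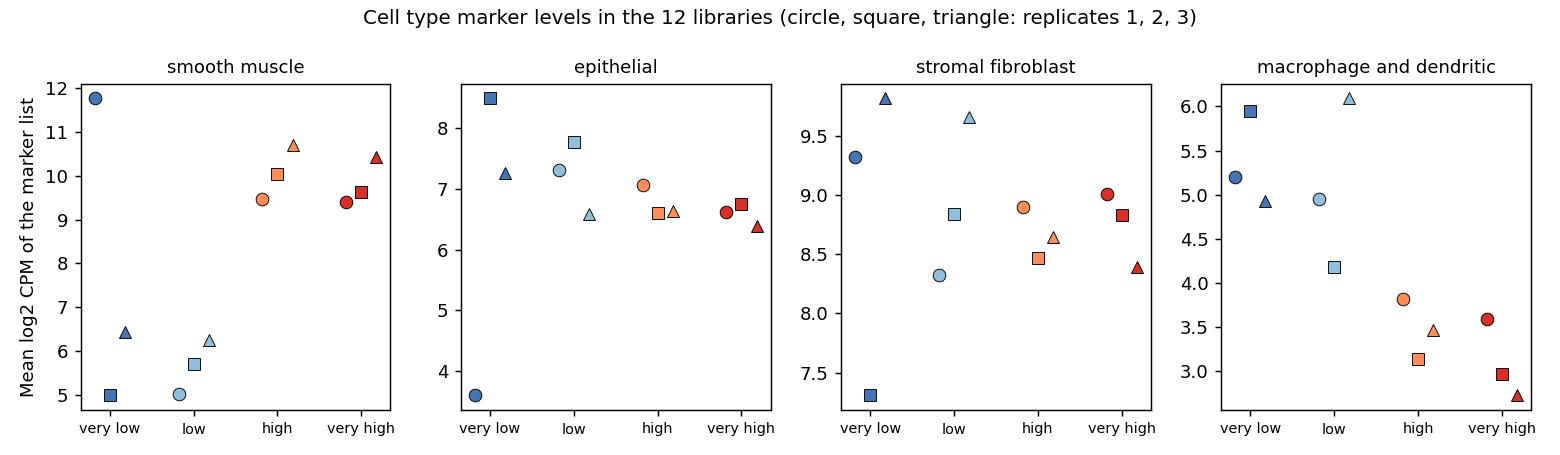
Mean log2 CPM (y axis) of the smooth muscle, epithelial, stromal fibroblast and macrophage marker lists in each library, by progesterone class (x axis), 1 point per library. Very low replicate 1 stands highest for smooth muscle (11.8) and lowest for epithelium (3.60), and very low replicate 2 is lowest for stroma (7.31) and highest for epithelium (8.49).

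The clearest pattern among the 9 genes was that of ETV5. It had 27.6, 20.1 and 27.4 CPM in very high replicates 1 to 3, 12.9, 7.27 and 7.09 CPM in the high class, 3.82, 7.68 and 4.49 CPM in the low class, and 9.90, 6.20 and 7.93 CPM in the very low class. Every very high library lay above all 9 libraries of the other classes, which held 3.82 to 12.9 CPM. Of all tested genes 0.611% had every very high library above the other 9. The class means were 25.0 ± 4.30 CPM in the very high, 9.08 ± 3.29 in the high, 8.01 ± 1.85 in the very low and 5.33 ± 2.06 in the low class (SD, n = 3 each), so ETV5 did not climb step by step with the class. The lower 3 classes overlapped one another.

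ETV5 was the 1 member of 9 whose slope over the ordered classes passed the threshold, at 0.57 log2 units per class (SE 0.15, edgeR adjusted p = 0.0425). In that test 7.48% of all tested genes passed, 3.02% of them rising and 4.46% falling. At an unadjusted p under 0.05 it held 3 members (ETV5, HGF and FGFR3) and 27.9% of all genes. The slope rested on the very high class. Between pairs of classes ETV5 had a log2 fold change of 1.64 (SE 0.37) for very high against very low (edgeR adjusted p = 0.0547), 2.23 (SE 0.38) against low (edgeR adjusted p = 0.237) and 1.46 (SE 0.37) against high (edgeR adjusted p = 1). None of these 3 passed over all genes in this fit. With DESeq2 very high passed against very low and low (DESeq2 adjusted p = 0.000465 and 5.47e-06) but not against high (0.306). An edgeR fit of only the 2 classes called very high against low (edgeR adjusted p = 0.0494) but not against very low (0.122). By its unadjusted p in the main fit ETV5 stood in place 5 of 10959 genes for very high against low. It stood in place 2 for very high against high, where 0.794% of genes had an unadjusted p under 0.05. The joint test of the 4 classes gave ETV5 an edgeR adjusted p of 0.12 and place 30.

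This call depended on most of the libraries. Without any single one of low replicate 2, very low replicates 2 and 3 and all 6 high and very high replicates the edgeR adjusted p ran from 0.0535 to 0.105, with slopes of 0.51 to 0.62. The call held without low replicate 1, low replicate 3 or very low replicate 1. In the pairs, very high against very low passed without low replicate 2, low replicate 3 or very low replicate 1 (edgeR adjusted p = 0.0486, 0.0485 and 0.0422, log2 fold changes 1.68, 1.64 and 1.80). Without very low replicate 1 very high against low passed too (2.21, edgeR adjusted p = 0.0394), as did the joint test (edgeR adjusted p = 0.0363). Over the 12 libraries, as a description, log2 CPM of ETV5 had Pearson correlations of -0.687 with the macrophage, -0.651 with the T and NK cell, -0.624 with the neutrophil and 0.597 with the smooth muscle score. The part of these cell types in the ETV5 result was not tested, apart from a fit with the smooth muscle score. When that last score entered the model as a covariate the slope was 0.46 (edgeR adjusted p = 0.0883), and very high against very low was 1.52 (edgeR adjusted p = 0.0338). Within classes that score had an SD of 3.6 in the very low class and 0.53 to 0.62 in the others. In the fits of the classes the covariate thus rests largely on the very low libraries. Here and below it cannot separate muscle content from class.

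**Figure D2:**
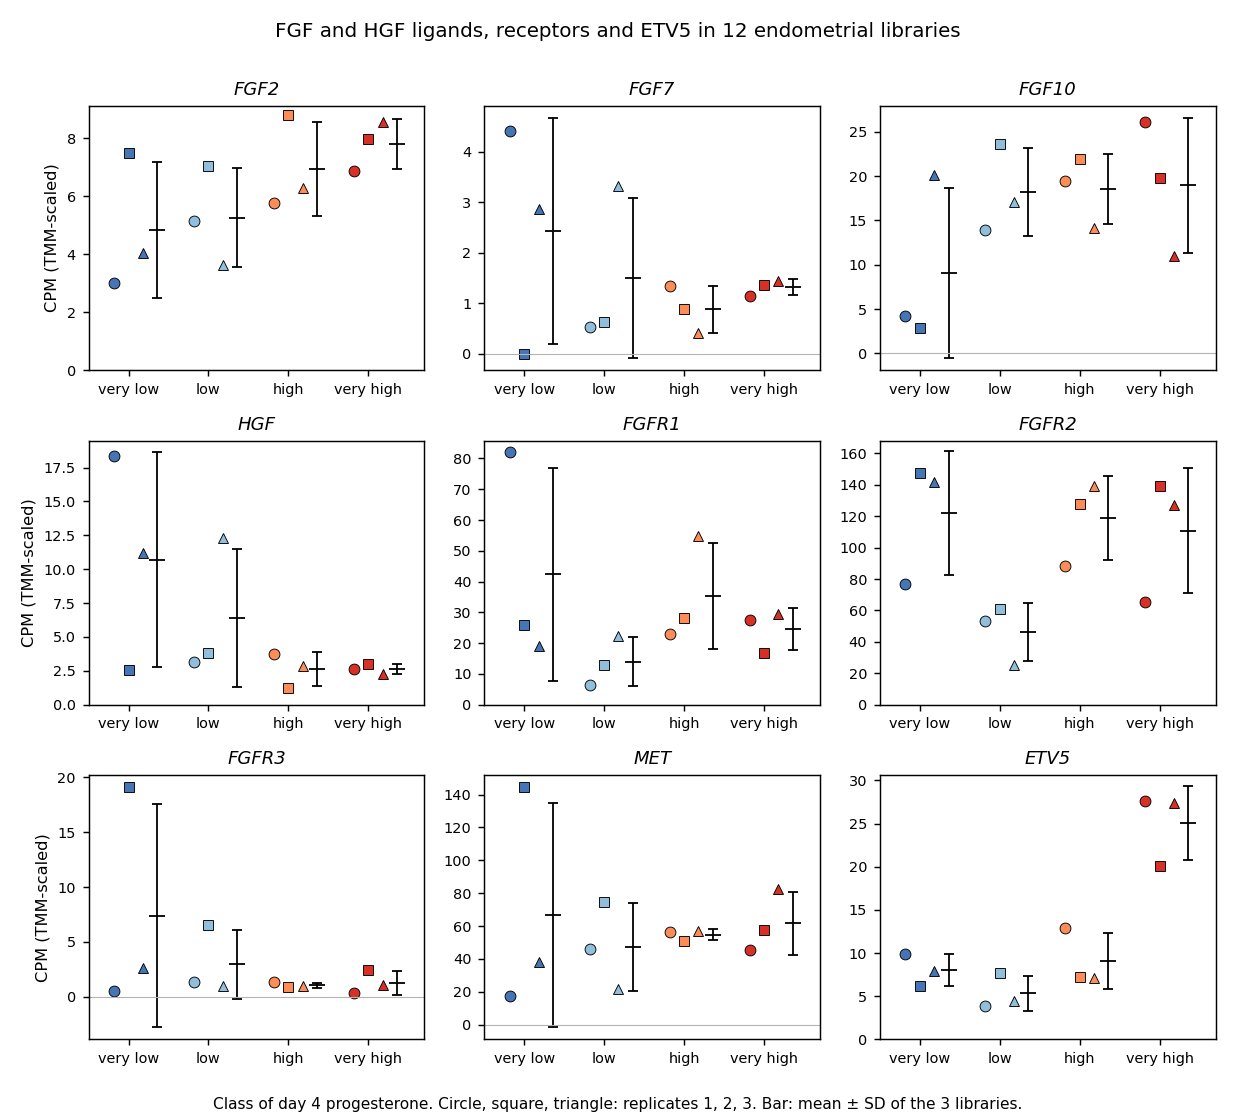
CPM of the 9 genes (y axes, linear and on a scale of their own) in the 12 libraries by progesterone class, 1 point per library, with the mean and SD of 3 beside them. ETV5 is at 20.1 to 27.6 CPM in the very high class and at most 12.9 elsewhere, and FGFR2 is at 25.6 to 60.8 CPM in the low class and at least 65.7 elsewhere.

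Over the 8 comparisons the ETV5 slope was the only call among the members in the edgeR test. For very high against very low, 0 of 9 members and 1.52% of all genes passed. In the joint test and in the other 5 pairs 0 of 9 members and 0% of all genes passed. At an unadjusted p under 0.05 there were 2 members for very high against very low, 1 for high against low, 1 for very high against high, 2 for very low against low, 2 for very high against low, 2 for high against very low and 3 in the joint test. The shares of all genes there were 23.8%, 10.3%, 0.794%, 11.6%, 11.9%, 18.8% and 17.8%. Ranges that did not overlap were found for 1, 2, 1, 1, 3 and 0 members in the 6 pairs in that order, and for 25.7%, 20%, 7.09%, 9.74%, 22.8% and 20.4% of all genes. DESeq2 on the same counts called 2, 0, 0, 1, 1, 0 and 2 members in those pairs and the joint test. The median log2 fold change of the 9 members for very high against very low was -0.14, and that of all tested genes -0.12.

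Among the ligands HGF, the stromal ligand of MET, had its 3 highest values in the lower classes. It had 18.4, 2.58 and 11.2 CPM in very low replicates 1 to 3, 3.16, 3.84 and 12.3 CPM in the low class, 3.76, 1.28 and 2.87 CPM in the high class and 2.63, 2.99 and 2.24 CPM in the very high class. The 3 high values, in very low replicates 1 and 3 and low replicate 3, stand above 9 libraries that all lie under 4 CPM. The classes overlapped except for very high and low. The slope was -0.73 log2 units per class (SE 0.21), just outside the threshold (edgeR adjusted p = 0.0556). It passed with DESeq2 (-0.73, DESeq2 adjusted p = 0.0125) and with the smooth muscle score in the model (-0.81, edgeR adjusted p = 0.0337). For very high against very low the log2 fold change was -2.03 (SE 0.74, edgeR adjusted p = 0.136), and this too passed with DESeq2 (-2.03, DESeq2 adjusted p = 0.0469) and with the covariate (-2.42, edgeR adjusted p = 0.038). For high against very low it was -2.03 (SE 0.74, edgeR adjusted p = 0.197), and -2.49 with the covariate, which passed (edgeR adjusted p = 0.0468). Without very low replicate 1 these changes were -1.44 and -1.43 (edgeR adjusted p = 0.255 and 0.285). Very high against low had a log2 fold change of -1.29 (SE 0.73, edgeR adjusted p = 0.53), which was -0.41 without low replicate 3 (edgeR adjusted p = 0.957). Over 12 libraries HGF had Pearson correlations of 0.716 with the stromal fibroblast score and 0.635 with the macrophage score. Macrophage scores stood high in the same lower classes, and the part of either cell type in the HGF values was not tested.

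FGF7, the keratinocyte growth factor, had few reads. It had 25, 0 and 22 reads in very low replicates 1 to 3, 4, 5 and 23 in the low class, 10, 7 and 3 in the high class and 10, 11 and 11 in the very high class. The same 3 libraries were high for FGF7 and for HGF. They also had the 3 highest stromal fibroblast scores, 9.32, 9.81 and 9.66 against 7.31 to 9.01 in the other 9 libraries, and the part of stromal content in both genes was not tested. The FGF7 slope was -0.34 (SE 0.29, edgeR adjusted p = 0.473). Its locus overlaps FAM227B in the RefSeq gene table.

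FGF10, the other stromal ligand of FGFR2, was low in a pair of the very low libraries. Very low replicates 1 and 2 had 4.24 and 2.84 CPM, and very low replicate 3 had 20.1 CPM. The low class held 14.0, 23.7 and 17.1 CPM, the high class 19.5, 21.9 and 14.2 CPM, and the very high class 26.1, 19.8 and 10.9 CPM. Replicate 3 alone joined the very low class to the others. With it, very high against very low gave a log2 fold change of 1.04 (SE 0.63, edgeR adjusted p = 0.337). Without very low replicate 3 that change was 2.40 (edgeR adjusted p = 0.033) and high against very low was 2.37 (edgeR adjusted p = 0.0488). Without very low replicate 1 or 2 very high against very low was 0.66 each time (edgeR adjusted p = 0.567 and 0.494), and high against very low was 0.64 and 0.62 (edgeR adjusted p = 0.602 and 0.563). The low, high and very high means of FGF10 were 18.2 ± 4.95, 18.5 ± 3.96 and 19.0 ± 7.61 CPM (SD, n = 3 each). For very high against high the log2 difference was 0.033, with a 95% interval of -1.32 to 1.39. Very low replicate 1 had the highest smooth muscle and the lowest endothelial marker score (3.64). Very low replicate 2 had the lowest stromal score (7.31), the fewest counted reads and 11 reads of FGF10. Over the 12 libraries FGF10 had a Pearson correlation of 0.77 with the endothelial score (Spearman 0.622). The part of tissue make-up in the FGF10 values was not tested.

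FGF2 ranged from 3.00 to 8.80 CPM. It had 3.00, 7.49 and 4.03 CPM in the very low class, 5.14, 7.04 and 3.62 CPM in the low class, 5.77, 8.80 and 6.28 CPM in the high class and 6.86, 7.98 and 8.57 CPM in the very high class. Adjacent classes overlapped, and the slope of 0.25 log2 units per class (SE 0.12) did not pass (edgeR adjusted p = 0.192). The FGF2 locus overlaps NUDT6, a tested gene. The strand setting of the counts is not given in the sources used here, so reads of the pair cannot be told apart.

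FGFR2, the receptor of FGF7 and FGF10 on epithelium, was set apart by the low class. It had 53.1, 60.8 and 25.6 CPM in low replicates 1 to 3, 76.9, 147.7 and 141.7 CPM in the very low class, 88.6, 128.0 and 139.5 CPM in the high class and 65.7, 139.5 and 127.4 CPM in the very high class. All 3 low libraries lay below the other 9, a placing that 0.739% of tested genes shared. The class means were 46.5 ± 18.5 CPM in the low class and 122.1 ± 39.3, 118.7 ± 26.7 and 110.9 ± 39.6 CPM in the very low, high and very high classes (SD, n = 3 each), and these last 3 overlapped. Against the low class the log2 fold changes were 1.39 (SE 0.40) for very low, 1.35 (SE 0.40) for high and 1.25 (SE 0.40) for very high. The edgeR adjusted p were 0.3, 0.351 and 0.268, so none passed, and the 3 comparisons share their low libraries. With DESeq2 very low against low passed (DESeq2 adjusted p = 0.0434), and high and very high against low did not (0.0583 and 0.0657). Because the lowest class was not the lowest in FGFR2, the slope was near 0 (0.05, 95% interval -0.31 to 0.40).

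Marker scores of the same libraries were set beside these values. In the low class smooth muscle scores were 5.02 to 6.26, those of the high and very high libraries 9.41 to 10.7, and those of the very low libraries 4.99, 6.43 and 11.8. Its epithelial scores were 6.59 to 7.77, against 3.60 to 8.49 in the very low class and 6.39 to 7.07 in the upper 6 libraries. Of the 14 epithelial markers 5 (KRT7, KRT8, KRT19, MUC1 and ELF3) were higher in every low than in every very high library, none was lower in every one, and 9 overlapped. Between these classes 22.8% of all tested genes had ranges apart, in either direction. The smooth muscle score as a covariate gave FGFR2 changes against low of 1.62 (very low), 1.95 (high) and 1.81 (very high). None passed (edgeR adjusted p = 0.339, 0.111 and 0.0943). The covariate cannot separate muscle content from class, and the part of the other cell types in the FGFR2 values was not tested.

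FGFR1, a receptor found mainly on mesenchymal cells, had its lowest class mean in the low class as well. It had 6.46, 13.0 and 22.4 CPM there, 23.1, 28.1 and 55.0 CPM in the high class, 27.7, 16.8 and 29.6 CPM in the very high class, and 82.0, 25.8 and 19.1 CPM in the very low class. The high libraries were all above the low ones (log2 fold change 1.34, SE 0.61, edgeR adjusted p = 0.488), and the very low and low classes overlapped (1.60, SE 0.61, edgeR adjusted p = 0.366). Without very low replicate 1 this last change was 0.67 (edgeR adjusted p = 0.713). The highest value, 82.0 CPM, came from very low replicate 1, the library richest in smooth muscle markers. When the smooth muscle score was a covariate the change for high against low was -0.11 in place of 1.34, and without very low replicate 1 the slope of -0.14 became 0.19. Low and high libraries do not overlap in that score, so the covariate fit cannot separate muscle content from class.

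FGFR3 was scarce in most libraries. It had 19.1 CPM (74 reads) in very low replicate 2 and 6.53 CPM (51 reads) in low replicate 2, and between 3 and 20 reads in each of the other 10 libraries. Very low replicate 2 also had the highest epithelial score and the most CDH1, an epithelial cadherin, at 388.5 CPM against 8.31 to 129.9 CPM elsewhere. The part of epithelial content in FGFR3 was not tested. The slope of FGFR3 was -0.88 (SE 0.33, edgeR adjusted p = 0.11), and high against very low was -2.76 (SE 1.20, edgeR adjusted p = 0.248). Both values rested on very low replicate 2. Without it the slope was -0.31 (edgeR adjusted p = 0.577) and high against very low -0.56 (edgeR adjusted p = 0.778). With the smooth muscle score in the model they were -0.12 and -0.053. Without very low replicate 1 the slope was -1.02 and passed (edgeR adjusted p = 0.0462).

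MET, the receptor of HGF, did not order the classes. It had 17.3, 144.6 and 38.1 CPM in the very low class, 45.9, 74.6 and 21.4 CPM in the low class, 56.5, 51.0 and 57.0 CPM in the high class and 45.2, 57.3 and 82.6 CPM in the very high class. All 4 classes overlapped, and the slope was -0.01 log2 units per class with a 95% interval of -0.42 to 0.39. The spread itself differed: the coefficient of variation was 102.4% in the very low and 6.07% in the high class. MET was at its lowest, 17.3, 21.4 and 38.1 CPM, in very low replicate 1, low replicate 3 and very low replicate 3, the 3 libraries in which its ligand HGF was at its highest. The same 3 had the highest stromal fibroblast scores. Over the 12 libraries MET had Pearson correlations of -0.804 with the stromal score (Spearman -0.727) and 0.744 with the epithelial score (Spearman 0.448). The part of tissue make-up in the MET values was not tested.

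**Figure D3:**
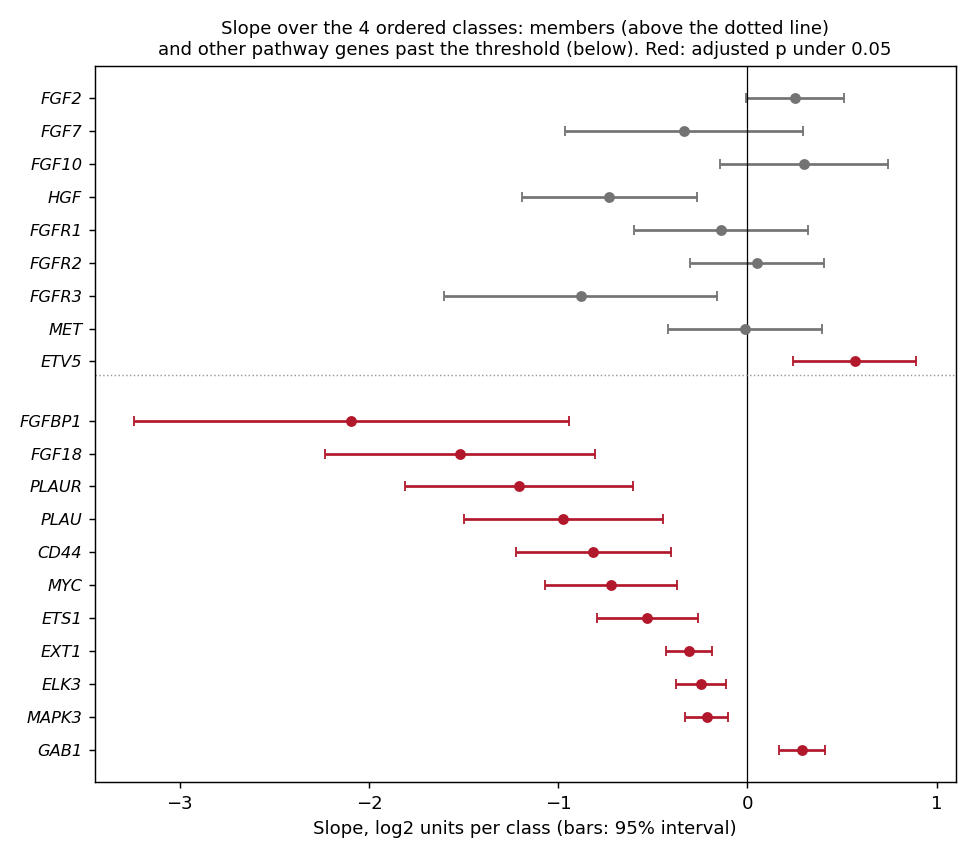
Slope in log2 units per class over the 4 ordered classes (x axis) with its 95% interval, for the 9 members above the dotted line and for the other pathway genes past the threshold below it. ETV5 (0.57) is the 1 member drawn in red, for an adjusted p under 0.05. GAB1 (0.29) is the 1 gene below the dotted line with a rising slope.

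Levels of ligands and receptors were set side by side. Over the 12 libraries, as a description only, HGF and MET had a Pearson correlation of log2 CPM of -0.752 (Spearman -0.615), and it was -0.341 without the 2 libraries farthest from the HGF median. FGF7 and FGFR2 had -0.342 (Spearman -0.245), and FGF10 and FGFR2 -0.209 (Spearman -0.182). FGF2 had -0.203 with FGFR1 (Spearman 0.0699, and Pearson 0.332 without the 2 farthest libraries), 0.503 with FGFR2 (Spearman 0.378) and 0.27 with FGFR3 (Spearman 0.154). The strongest relation between any 2 of the 9 was that of FGF2 and HGF, -0.943 (Spearman -0.867), and -0.853 without the 2 libraries farthest from the FGF2 median. The 12 points of each pair are the same libraries, which differ in tissue make-up, and the part of that in these values was not tested.

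The genes with the most similar profiles were sought among tested genes that averaged at least 1 on the log2 CPM scale. For ETV5 they were INVS (Pearson 0.875), AKR1C4 (0.812) and OXNAD1 (0.803), the lowest leading value of any member. FGFR2 was nearest to ZNF287 (0.897), FGFR1 to GOLIM4 (0.947) and FGFR3 to GUCY2C (0.941). MET was nearest to ZC3HAV1L (0.972), HGF to C13H20orf27 (0.956) and FGF2 to MYSM1 (0.977). FGF7 was nearest to CAMLG (0.954) and FGF10 to WNT16 (0.959). All are over 12 libraries. Each is the largest of many correlations, so a high value can come from the selection alone. Without the 2 libraries farthest from the member's median the value was 0.73 for ETV5, 0.72 for FGFR2 and 0.779 for FGF10. For the other members it was 0.854 to 0.943.

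Other genes of the pathway were described from 6 lists with 113 places, of which 75 were tested. In the slope test 11 of the 75 passed, 1 rising and 10 falling, beside 7.48% of all genes. The median slope was -0.13 in the lists and -0.04 over all genes. For very high against very low 1 of 75, EXT1, passed, beside 1.52% of all genes, and the median log2 fold change was -0.46 against -0.12 over all genes. The joint test called 0 of 75.

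Beside 4.46% of all tested genes, 1 of 8 tested other ligands and 1 of 9 tested receptors and co-receptors fell. The ligand was FGF18. It had 1.24, 42.1 and 5.46 CPM in the very low class and 0.25 to 2.37 CPM in the other 9 libraries (slope -1.52, edgeR adjusted p = 0.0294). The high value belongs to very low replicate 2, and very low replicate 1 lay within the range of the other classes. The 1 of the receptors and co-receptors was CD44, a hyaluronan receptor that also assists MET. Its means were 338.3 ± 234, 263.1 ± 114, 78.4 ± 28.1 and 75.6 ± 31.9 CPM in the order of the classes (SD, n = 3 each; slope -0.82, edgeR adjusted p = 0.0332). Macrophage, T and NK cell and neutrophil marker scores have lower class means in the upper classes as well, and their part in the falls of CD44, PLAU and PLAUR was not tested.

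Of 15 tested genes of ligand release and activation 4 fell, as did 4.46% of all tested genes. FGFBP1, a carrier that frees FGFs from the matrix, had 0.88, 169.3 and 4.16 CPM in the very low class and 10.7, 44.7 and 27.8 CPM in the low class. It had 0.27 to 2.05 CPM in the upper 6 libraries, below all 3 low ones but not below very low replicate 1 (slope -2.09, edgeR adjusted p = 0.0387). PLAU, the urokinase protease, which can activate HGF, had means of 71.8 ± 32.1, 76.5 ± 67.7, 21.1 ± 15.4 and 12.4 ± 2.57 CPM in the order of the classes (SD, n = 3 each), with 154.6 CPM in low replicate 3 (slope -0.97, edgeR adjusted p = 0.0372). Its receptor PLAUR had a slope of -1.21 (edgeR adjusted p = 0.0328). EXT1, which builds the heparan sulfate chains that FGFs need to bind their receptors, stepped down from 110.5 ± 3.65 through 79.4 ± 18.5 and 66.9 ± 8.52 to 57.2 ± 5.01 CPM (SD, n = 3 each). Its slope was -0.31 (SE 0.06, edgeR adjusted p = 0.022), and for very high against very low it was -0.95 (SE 0.19, edgeR adjusted p = 0.0405).

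In the adaptors and the RAS-ERK cascade 1 of 17 rose and 1 fell, beside 3.02% and 4.46% of all tested genes. GAB1 is the docking protein that couples MET and FGF receptors to the cascade. It had 57.6 to 78.2 CPM in the 6 very low and low libraries and 90.8 to 122.4 CPM in the upper 6. The share of all genes that separate these libraries in this way was not counted. The slope of GAB1 was 0.29 (SE 0.06, edgeR adjusted p = 0.0228). MAPK3, the kinase ERK1, was at 180.6 ± 11.3 CPM in very low libraries and at 114.6 ± 17.4 CPM in very high ones (SD, n = 3 each; slope -0.22, edgeR adjusted p = 0.0366). Smooth muscle scores stood high in the same upper 6 libraries and in very low replicate 1, which had 57.6 CPM of GAB1 and 178.5 CPM of MAPK3, and macrophage scores stood low in the upper 6. The part of either in these values was not tested.

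Of 15 tested ETS relatives and ERK-induced genes 3 fell and none rose, beside 4.46% and 3.02% of all tested genes. The 3 were MYC (slope -0.72, edgeR adjusted p = 0.0322), ETS1 (-0.53, edgeR adjusted p = 0.0334) and ELK3 (-0.25, edgeR adjusted p = 0.0379). MYC had 318.0 CPM in very low replicate 1 and 29.0 to 85.1 CPM in the other 11 libraries. Of 11 tested feedback inhibitors none passed. The pair with the smallest joint p were DUSP7, at 37.6 to 53.2 CPM in the lower and 51.9 to 96.0 CPM in the upper 6 libraries (slope 0.29, edgeR adjusted p = 0.0784), and SPRED1 (slope -0.19, edgeR adjusted p = 0.065).

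DUSP6, SPRY1 and SPRY2 were looked up after their values were seen, because FGF signalling through ERK induces them in many tissues as it does ETV5. They were taken from the 11 tested feedback inhibitors. None of them had every very high library above all libraries of the other classes, as ETV5 had. Of all tested genes 0.611% had that placing, so its absence from a few chosen genes decides nothing about ETV5. DUSP6 had 23.3 ± 11.1 CPM in the very high class against 29.6 ± 11.4, 60.9 ± 42.8 and 39.9 ± 28.1 CPM in the high, low and very low classes (SD, n = 3 each). Its slope was -0.36 (edgeR adjusted p = 0.347). SPRY1 had 58.7 ± 8.71, 58.1 ± 17.0, 62.9 ± 32.6 and 38.6 ± 13.9 CPM in the very high, high, low and very low classes. SPRY2 had 37.2 ± 11.1, 30.7 ± 2.60, 32.9 ± 3.64 and 26.4 ± 1.84 CPM in the same order (SD, n = 3 each). Their slopes were 0.16 and 0.14 (edgeR adjusted p = 0.454 and 0.206). IL17RD, another tested feedback inhibitor, had 0 to 9 reads in the low and 3 to 6 in the very low class. It had 19 to 24 reads in the high and 13 to 45 in the very high class, and its slope did not pass. The difference between ETV5 and these genes was not tested.

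**Figure D4:**
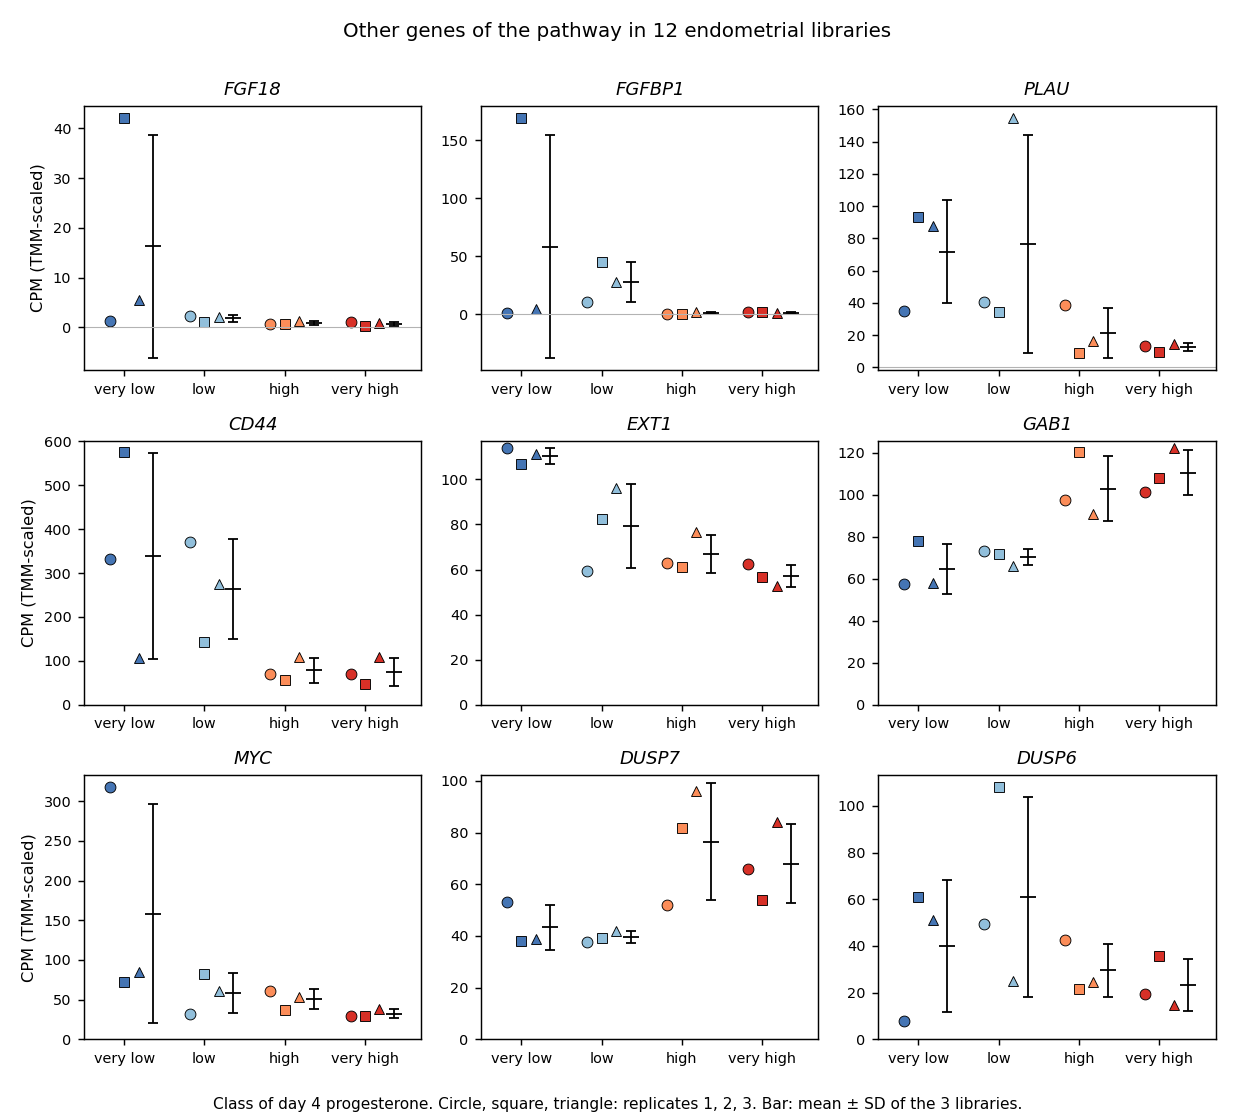
CPM of 9 other pathway genes (y axes, linear and on a scale of their own) in the 12 libraries by progesterone class, with the mean and SD of 3. FGF18 and FGFBP1 peak in very low replicate 2 (42.1 and 169.3 CPM). GAB1 is at 57.6 to 78.2 CPM in the lower and 90.8 to 122.4 CPM in the upper 6 libraries. DUSP6 is not raised in the very high class (14.6 to 35.8 CPM).

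The count of 11 called pathway genes was 12 with the smooth muscle score in the model, and it depended on single libraries. Leaving out very low replicate 1 gave 24, leaving out very low replicate 2 gave 3, and the count was 2, 3 and 3 without high replicates 1, 2 and 3, and 3, 0 and 0 without very high replicates 1, 2 and 3.

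**Figure D5:**
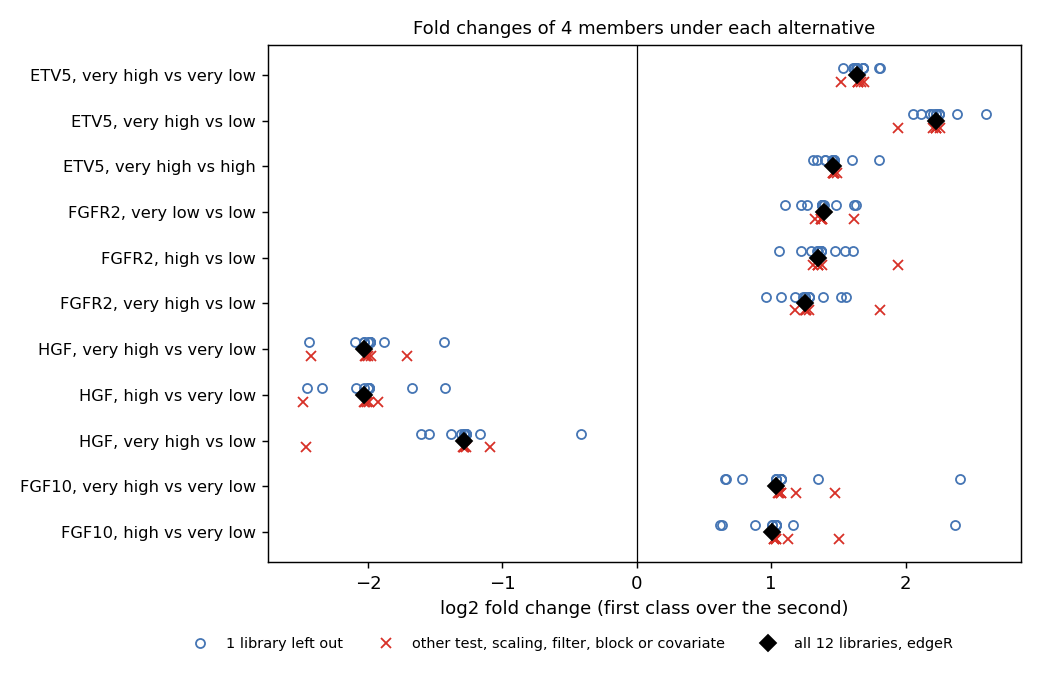
Log2 fold change (x axis) of ETV5, FGFR2, HGF and FGF10 in 11 combinations of a gene with a pair of classes, with all 12 libraries (diamond), with 1 library left out (circles) and under the other alternatives (crosses). Each gene keeps its side of 0 in every setting drawn, FGF10 for very high against very low moves from 1.04 to 2.40 without very low replicate 3, and HGF for very high against low from -1.29 to -0.41 without low replicate 3.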

How the data were processed

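Per the labels' protocols, RNA from 12 endometrial biopsies was extracted with Trizol, captured with oligo-dT, made into stranded TruSeq libraries and sequenced as 1 pool of paired reads. FastQC 0.11.2, Trimmomatic 0.32 and the builds UMD3.1 and bosTau8 are named in the submitters' processing notes. How reads were aligned and counted, with which strand setting and annotation, is not given in the sources used here. The authors deposited raw counts per gene symbol, unscaled, 1 column per sample.

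Genes were kept by filterByExpr (count minimum 10), scaled by TMM (factors 0.728 to 1.11) and fitted with the quasi-likelihood model of edgeR 4.0.16 in R 4.3.3 on all 12 libraries. The 6 pairs of classes, a joint test and a slope on class rank were tested. Adjusted p are Benjamini-Hochberg values over all 10959 tested genes, called under 0.05. Intervals are at 95% from the same fit. Log2 CPM used a prior count of 2. DESeq2 1.42.0 was an alternative. The test was also run on simulated counts, and the outcome is not given here. The members and lists were chosen with earlier results of these data known. All members are named, as are pathway genes past the threshold in the slope or joint test, or else the 2 with the smallest joint p. All 9 symbols matched the RefSeq gene table (ARS-UCD2.0), which served only for names and overlaps. No sequences are shown.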

Additional observations from a re-analysis of the deposited data

How the results depend on the processing

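The number of members called was the same with RLE scaling and without the count filter in all 8 comparisons. DESeq2 called 2 members for very high against very low, 1 for very low against low, 1 for very high against low, 2 in the joint test and 2 for the slope. The smooth muscle score as a covariate gave 2 for very high against very low and 1 for high against very low, and a fit of only the 2 classes gave 1 for very high against low. Leaving out single libraries gave 0 to 1 members for very high against very low, very high against low, high against very low and the joint test, and 0 to 2 for the slope. The replicate numbers did not pair the samples (correlation of deviations -0.298 to 0.294 over 18 same-numbered pairs, 4 of 12 libraries closest to their own number). With the replicate block the slope called 0 members (ETV5 adjusted p = 0.0721) and 180 genes in place of 820, and very high against very low called 0 genes in place of 167.

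The count of all genes called ran from 0 to 651 for very high against very low and from 1 to 1441 for the slope when 1 library was left out. For the other pairs with any call and the joint test, each with 0 genes called, it reached 76 (high against low), 16 (very low against low), 65 (very high against low), 140 (high against very low) and 222 (joint). DESeq2 called 1510, 241, 0, 285, 370, 788, 1303 and 2008 genes in the order very high against very low, high against low, very high against high, very low against low, very high against low, high against very low, joint and slope. The covariate gave 1892, 51, 0, 0, 169, 1252, 504 and 1629, and the fits of 2 classes gave 0, 26, 0, 0, 86 and 0. The count of called pathway genes, an alternative added after seeing the data, went from 11 to 27 for the slope with DESeq2 and to 2 with the replicate block. For very high against very low it went from 1 to 16 with DESeq2, 16 with the covariate and 12 without very low replicate 1. It fell to 0 without the count filter, with the replicate block and in the fit of only the 2 classes. Leaving out low replicate 2, very low replicate 2, or any single high or very high replicate also gave 0.

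Signs changed for 4 values, none past the threshold. FGFR1 for high against low was -0.11 with the covariate, and its slope was 0.19 without very low replicate 1 (range over libraries left out -0.21 to 0.19). The FGFR2 slope was -0.061 with the covariate. The MET slope was 0.0054 without the filter, 0.11 with the replicate block, 0.30 with the covariate and -0.12 to 0.35 with 1 library left out. The cause was not tested. FGF7 and FGFR3, with 0 to 74 reads per library, are limited by depth. So are HGF, with 10 to 104 reads per library, and FGF2, with 17 to 69.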
